A study of Sus scrofa with 70 samples.

Results

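CLU (clusterin), NPC2, LTF (lactotransferrin, or lactoferrin) and MAN2B2 are 4 pig genes whose products are known as major secreted proteins of boar epididymal fluid. They were taken by gene name from the annotation deposited with an atlas of boar reproductive glands, and their transcripts were summed to 1 value per gene. They are 4 of the 35680 genes of the RNA-seq table and hold 39 of its 133722 transcripts. RNA was measured in testis and epididymis tissue and in the vesicular, prostate and bulbourethral glands of an inbred line, the Banna mini-pig (BMI), and of the non-inbred Diannan small-ear pig (DSE), in adult boars aged 12 months and without any treatment. RNA-seq comprised 3 libraries of each breed and gland, 30 in all, given as TPM, a level per transcript length that sums to 1000000 in every library. Iso-seq, the sequencing of full-length transcripts on the PacBio platform, comprised 1 library of each breed and gland, 10 in all, given as counts of full-length reads. The labels name the organ and not the stretch of the epididymal duct, and although the study speaks of paired samples, the sources do not say which libraries came from the same boar. The samples were bulk tissue, so that fewer cells of a type and less RNA per cell cannot be told apart.

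The epididymis is a long coiled duct in which sperm mature while its epithelium secretes proteins into the fluid around them, and each stretch of the duct is known to secrete its own set. CLU is an extracellular chaperone that binds unfolded proteins and coats sperm. NPC2 is a small cholesterol-binding protein of lysosomes that the epididymis also releases in bulk. LTF is an iron-binding glycoprotein of the transferrin family with antimicrobial activity, and MAN2B2 is an acid alpha-mannosidase that trims mannose from glycoproteins.

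In Sscrofa11.1, CLU (ENSSSCG00000009668) lies at chr14:11336184-11368041 on the minus strand with 29 annotated transcripts, 1 from Ensembl and 28 added by the study from Iso-seq. NPC2 (ENSSSCG00000002366) lies at chr7:97730516-97740331 on the minus strand with 3 transcripts, of which 2 are from Ensembl. LTF (ENSSSCG00000029879) lies at chr13:29411847-29445742 on the minus strand with 7 transcripts, of which 3 are from Ensembl. MAN2B2 (ENSSSCG00000027178) lies at chr8:4137018-4181195 on the plus strand with 2 transcripts, of which 1 is from Ensembl.

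Of these genes, CLU and NPC2 were annotated with transcripts that begin differently. The TPM of RNA-seq and the full-length reads of Iso-seq were divided differently among these transcripts. The sequences around those beginnings are shown because the isoforms compared below differ there. They were read from the RefSeq copy of Sscrofa11.1, 5′ to 3′ on the strand of the gene. Each CLU window holds 10 bases of exon and 10 of intron, with the intron's outermost bases in capitals. The donors below belong to the exon that is joined to the CLU exon at chr14:11348881-11349015, and the acceptor is that of this shared exon.
Upstream CLU exon, donor, chr14:11352279-11352298: ccgctgactgGTgagatgtc
Ensembl CLU exon, donor, chr14:11349347-11349366: gctattaaggGTaaagggag
PB.5729.35 CLU exon, donor, chr14:11349909-11349928: accatctcagGAaggagaga
Shared CLU exon, acceptor, chr14:11349006-11349025: ctacaaacAGaggcgtgcta
The upstream and the Ensembl exon end at GT, the usual start of an intron, and both of these exon edges also occur in RefSeq. The intron that follows the exon of PB.5729.35, an isoform found by Iso-seq, starts with GA, and this edge does not occur in the RefSeq annotation.

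For NPC2, the coding part of the leading exon is shown for both Ensembl transcripts, with the 3 bases at which the annotated coding sequence starts in capitals.
ENSSSCT00000002630, 82 bases, chr7:97739976-97740057: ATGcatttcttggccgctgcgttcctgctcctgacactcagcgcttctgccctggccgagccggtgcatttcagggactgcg
ENSSSCT00000079038, 51 bases, chr7:97736603-97736653: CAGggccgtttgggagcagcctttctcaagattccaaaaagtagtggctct
ENSSSCT00000002630 starts with ATG and has a coding length of 450 bases. ENSSSCT00000079038 starts inside the intron of the other transcript, its annotated coding sequence of 465 bases begins with CAG and not with ATG, and its next exon, at chr7:97736185-97736338, extends further upstream than that of ENSSSCT00000002630.

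In the 6 epididymis libraries the 4 genes together took 0.682%, 2.87% and 0.695% of all TPM in BMI replicates 1 to 3, and 5.37%, 0.0828% and 2.75% in DSE replicates 1 to 3. The mean was 2.08% ± 1.99 (SD, n = 6), against 0.175% ± 0.110 in testis, 0.0853% ± 0.0238 in vesicular gland, 0.0743% ± 0.0220 in bulbourethral gland and 0.0236% ± 0.0134 in prostate gland (SD, n = 6 each). DSE replicate 2 of the epididymis lay below the highest library of testis, vesicular gland and bulbourethral gland, whereas the other 5 epididymis libraries lay above all 24 libraries of the other glands.

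**Figure D1:**
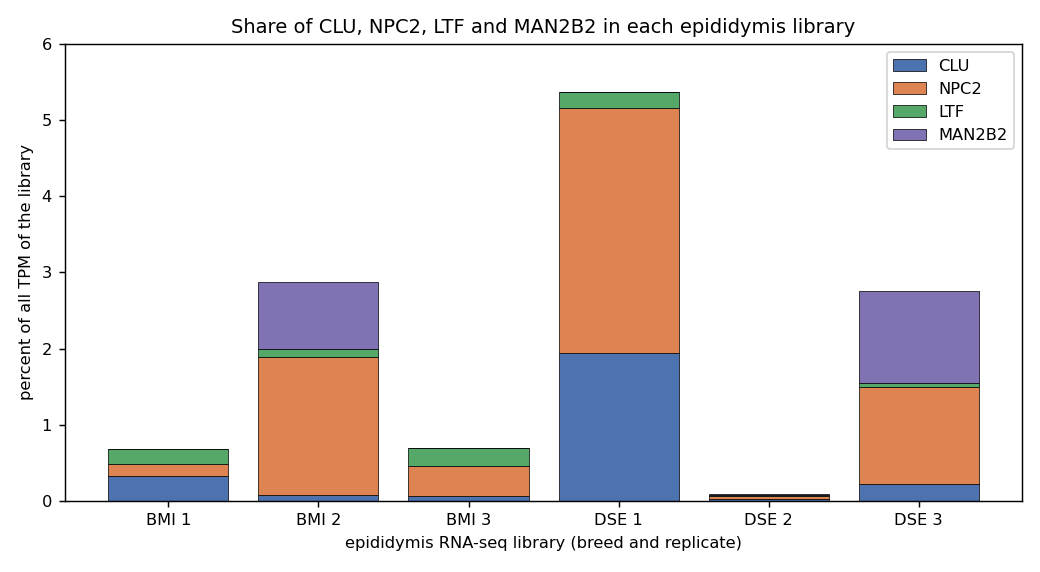
Percent of all TPM (vertical axis) taken by CLU, NPC2, LTF and MAN2B2 in each of the 6 epididymis RNA-seq libraries (bars, by breed and replicate), stacked by gene. The sum ranged from 0.0828% in DSE replicate 2 to 5.37% in DSE replicate 1, and MAN2B2 is visible in BMI replicate 2 and DSE replicate 3 only.

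CLU was measured in the epididymis at 3266, 751 and 663 TPM in BMI replicates 1 to 3 and at 19446, 288 and 2158 TPM in DSE replicates 1 to 3. DSE replicate 1 stood far above the others, and CLU was its 5th most abundant gene. In testis CLU reached 945, 957 and 1155 TPM in BMI and 1219, 3558 and 1751 TPM in DSE, so that the libraries of epididymis and testis overlapped. In bulbourethral gland the 6 libraries held 410 to 998 TPM with a median of 600.1 TPM, and they overlapped with epididymis as well. Prostate gland with 42.5 to 311 TPM and vesicular gland with 12.2 to 192 TPM had the lowest levels and overlapped with each other, but not with bulbourethral gland.

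NPC2 had the highest mean in the epididymis, at 11492 TPM ± 12284 (SD, n = 6). Its libraries there gave 1598, 18103 and 3948 TPM in BMI and 32204, 299.5 and 12799 TPM in DSE. NPC2 was thus the 2nd most abundant gene in BMI replicate 2 and in DSE replicate 1, and rank 407 in DSE replicate 2. In vesicular gland it was measured at 298 to 781 TPM, in testis at 83.2 to 349 TPM, in bulbourethral gland at 74.8 to 138 TPM and in prostate gland at 40.2 to 140.4 TPM. DSE replicate 2 of the epididymis fell within the range of vesicular gland and of testis.

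LTF differed least between epididymis libraries, with 1950.1, 1136 and 2331 TPM in BMI and 2045, 212 and 491 TPM in DSE. Vesicular gland was the only other gland in which all libraries exceeded 50 TPM, with 316, 285 and 290.3 TPM in BMI and 60.3, 185 and 118 TPM in DSE. LTF was measured at 3.55 to 31.8 TPM in bulbourethral gland and at 0 to 0.208 TPM in testis. In prostate gland 5 libraries held 0.0484 to 0.545 TPM and BMI replicate 2 held 142.5 TPM.

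MAN2B2 was either very high or low in the epididymis. It was measured at 8730 TPM in BMI replicate 2 and at 12091 TPM in DSE replicate 3, where it was the 8th and the 6th most abundant gene. The remaining libraries held 4.74 and 11.4 TPM in BMI replicates 1 and 3, and 4.57 and 27.9 TPM in DSE replicates 1 and 2. Even these 4 libraries lay above all 24 libraries of the other glands, of which the highest was DSE testis replicate 1 at 3.24 TPM. MAN2B2 did not exceed 0.772 TPM in any library of the 3 accessory glands.

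**Figure D2:**
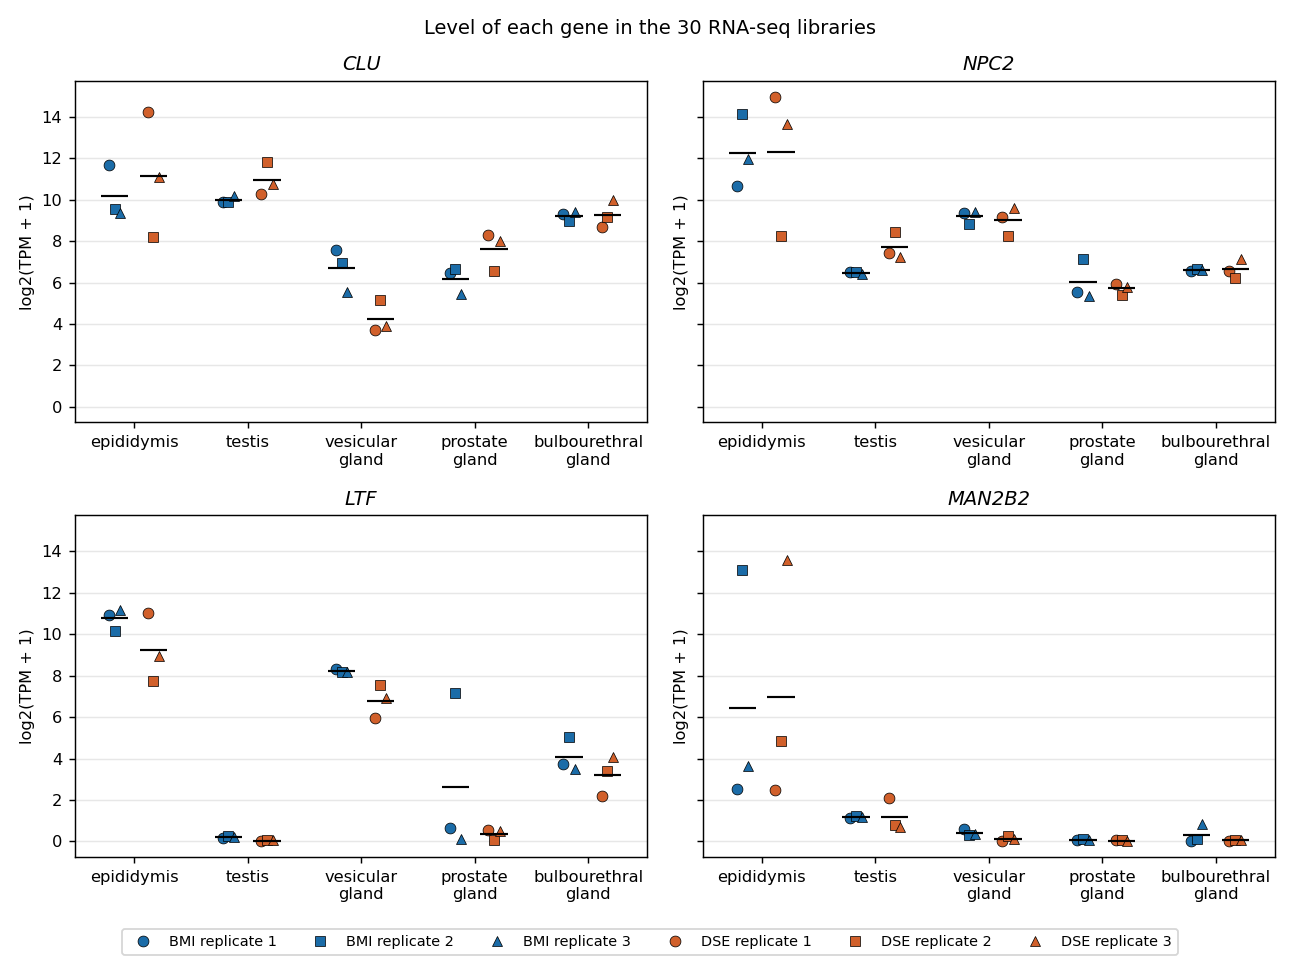
Level of each gene as log2(TPM + 1) (vertical axis) in the 30 RNA-seq libraries by gland (horizontal axis), with BMI in blue, DSE in orange, the replicate by symbol and the mean of 3 libraries as a line. CLU overlapped between epididymis, testis and bulbourethral gland, and MAN2B2 split into 2 high and 4 low epididymis libraries.

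Some libraries touch these values. BMI prostate gland replicate 2 held 73331 TPM of SPMI, 79994 TPM of PSP-I and 52018 TPM of AWN, seminal plasma protein genes at 42511 to 143475 TPM in vesicular gland and at no more than 5.15 TPM in the other 5 prostate libraries. Its log2 levels correlated with those of the vesicular gland libraries at a mean Pearson r of 0.955 and with the other prostate libraries at 0.929. The BMI prostate Iso-seq library showed the same, with 4029 reads of PSP-I against 0 in DSE. Within the epididymis, DSE replicate 1 had the lowest mean correlation with the other 5 libraries, at 0.871 against 0.906 to 0.929. A list of epididymal epithelium genes (10 of 12 found in the annotation) summed to 2345 to 48698 TPM in epididymis, 8.60 to 18.1 TPM in testis, 1065 to 6686 TPM in vesicular gland, 0.893 to 1523 TPM in prostate gland and 48.0 to 299 TPM in bulbourethral gland. By its sum the list thus set epididymis apart from testis, prostate gland and bulbourethral gland, but not from vesicular gland, where the libraries overlapped. A sum can rest on few genes, and 3 of the 10, LCN6, CES5A and CST11, stayed below 1 TPM in every vesicular gland library.

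By mean level CLU was highest in epididymis, then testis, bulbourethral, prostate and vesicular gland. The lead over testis rested on DSE epididymis replicate 1, without which CLU took a mean of 0.143% of TPM in epididymis against 0.160% in testis, and the log2 difference turned from 0.22 to -0.55. Whether the epididymis differed from each other gland beyond the spread between libraries was tested with limma on log2(TPM + 1) over 19911 genes, those reaching 1 TPM in 3 or more libraries. A gene was called at a Benjamini-Hochberg adjusted p below 0.05 and an absolute log2 difference of at least 1. Against testis CLU differed by 0.22 ± 0.65 (log2 difference ± SE, 95% interval -1.11 to 1.55, adjusted p = 0.773), and against bulbourethral gland by 1.44 ± 0.65 (interval 0.11 to 2.77, adjusted p = 0.0857). Neither was called, but without DSE epididymis replicate 2, the lowest, the difference from bulbourethral gland was 2.19 and was called (adjusted p = 0.00172). CLU was higher in epididymis than in prostate gland, by 3.79 ± 0.65 (adjusted p = 4.19e-05), and than in vesicular gland, by 5.21 ± 0.65 (adjusted p = 3.69e-07).

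NPC2, LTF and MAN2B2 were called higher in epididymis than in every other gland. NPC2 was higher by 3.16 ± 0.71 against vesicular gland (adjusted p = 0.000502) and by 5.17 to 6.39 against the other 3 glands. LTF was higher by 2.49 ± 0.76 against vesicular gland (adjusted p = 0.00666), the smallest of these differences, and by 6.34 to 9.86 against the others. MAN2B2 was higher by 5.50 ± 1.38 against testis (adjusted p = 0.00101) and by 6.41 to 6.63 against the accessory glands, with the widest intervals of the 4 genes. Of the genes tested, 21.6% were called higher in epididymis than in testis, 34.5% than in vesicular gland, 17.6% than in prostate gland and 15% than in bulbourethral gland. The median log2 difference of all genes was 0.02, 0.74, 0.38 and 0.17 for these glands in turn. Scaled by size factors from the median of ratios, LTF was higher than in vesicular gland by 1.40 only and was not called (adjusted p = 0.207).

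Against the mean of the other 4 glands together, all 4 genes were called higher, where 15.1% of the genes tested were. The log2 differences were 2.66 ± 0.51 for CLU (adjusted p = 0.000103), 5.09 ± 0.56 for NPC2 (adjusted p = 5.89e-08), 6.79 ± 0.60 for LTF (adjusted p = 1.77e-09) and 6.26 ± 1.09 for MAN2B2 (adjusted p = 3.28e-05). Read by library, only MAN2B2 had all 6 epididymis libraries above all 24 others, as did 3.01% of the genes tested. Taken gland by gland, the epididymis libraries lay above all libraries of testis for LTF and MAN2B2 (16.5% of genes), of vesicular gland for CLU and MAN2B2 (23.7%), and of prostate gland (14.7%) and bulbourethral gland (12.2%) for NPC2, LTF and MAN2B2. These fits give all groups 1 spread per gene, while CLU, NPC2 and MAN2B2 spread most in the epididymis and LTF in prostate gland. An exact two-sided permutation test over all splits of 6 against 6 libraries, made for 16 pairs of gene and gland, gave the same calls, with adjusted p of 0.00346 to 0.0198 for the 14 called pairs, 0.827 for CLU against testis and 0.145 for CLU against bulbourethral gland.

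**Figure D3:**
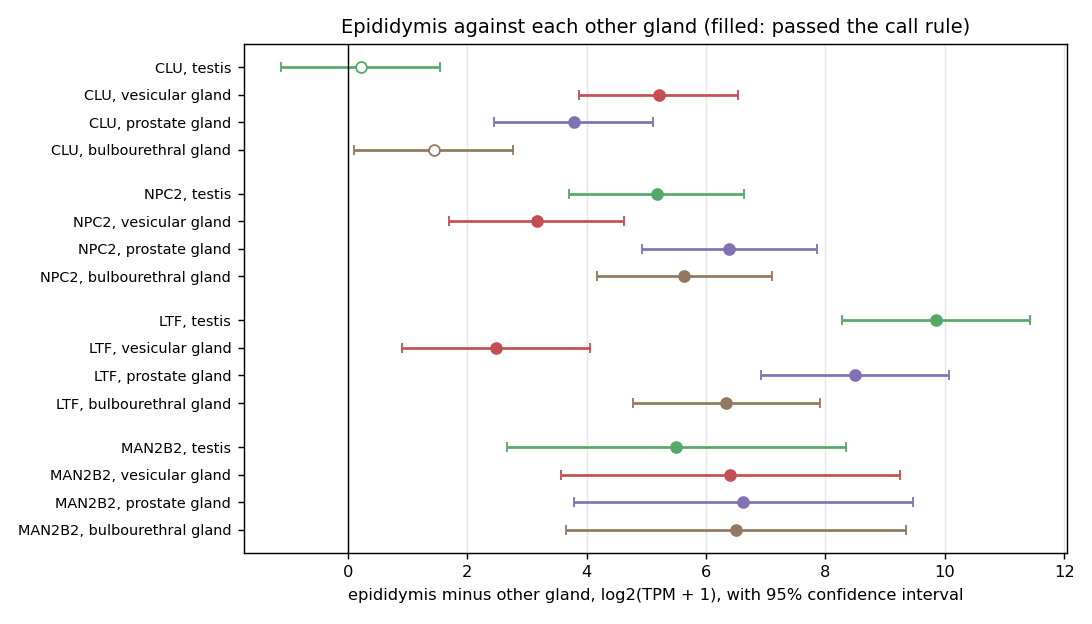
Difference between epididymis and each other gland on the log2(TPM + 1) scale (horizontal axis) for each gene, with its 95% confidence interval. The differences ran from 0.22 for CLU against testis to 9.86 for LTF against testis, and the open symbols, both of CLU, were not called.

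The spread between epididymis libraries was large for all 4 genes. The SD of log2(TPM + 1) within a breed, pooled over both breeds, was 5.82 for MAN2B2, 2.82 for NPC2, 2.33 for CLU and 1.23 for LTF, beside a median of 0.502 over all genes tested. Of all genes tested, 99.96% had a lower SD than MAN2B2, 99.4% than NPC2, 99.0% than CLU and 91.9% than LTF. In the other glands the SDs were lower, at 0.48 to 0.92 for CLU, 0.32 to 0.72 for NPC2 and 0.03 to 0.54 for MAN2B2. LTF reached 2.79 in prostate gland, where 1 library carried it. Without DSE replicate 2 the SD of NPC2 in the epididymis was 1.54, and without DSE replicate 1 that of LTF was 0.66. The ratio of the highest to the lowest epididymis library was 2647 for MAN2B2, 108 for NPC2, 67.5 for CLU and 11.0 for LTF.

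The 4 genes did not vary together. DSE replicate 1 had the highest CLU and NPC2 and the lowest MAN2B2. BMI replicate 2 had high NPC2 and MAN2B2 with low CLU, and BMI replicate 1 had high CLU and LTF with low NPC2 and MAN2B2. DSE replicate 2 had the lowest CLU, NPC2 and LTF. Other genes secreted by the epididymis differed between the same libraries. CST11, a cystatin, was at 5074 TPM in BMI replicate 2 and 8045 TPM in DSE replicate 1 and at 0.482 to 719 TPM elsewhere. RNASE10, an inactive member of the ribonuclease A family, was at 10294 TPM in BMI replicate 2 and at 3.09 to 20.1 TPM in the others. CRISP1, a sperm-coating cysteine-rich protein, was at 21.3 TPM in DSE replicate 1 and at 1100.0 TPM or more in the others. Muscle genes moved too. The 5 smooth muscle markers summed to 20837 TPM in DSE replicate 2 and 13745 TPM in BMI replicate 1, against 2291 to 7978 TPM in the other 4. The summed germ cell and sperm markers ranged from 11.9 TPM in DSE replicate 2 to 1068 TPM in BMI replicate 2, beside 25963 TPM or more in testis. LTF is also a granule protein of neutrophils, and the 9 neutrophil markers found in the annotation summed to at most 7.77 TPM in the BMI epididymis libraries and to 1.44, 63.9 and 16.9 TPM in DSE replicates 1 to 3. In DSE replicate 2 the sum was made up mainly of CSF3R, S100A8 and S100A12, at 32.4, 15.9 and 12.7 TPM, while MPO, ELANE, MMP8 and CD177 were below 1 TPM in all 6 libraries. Of the 7 neutrophil markers tested against the mean of the other glands, S100A12 (1.05 ± 0.35, adjusted p = 0.0131 in limma) and CSF3R (1.07 ± 0.39, adjusted p = 0.0219) were called higher, while the median of the 7 was -0.27, below the 0.25 of all genes. In the same comparison 9 of 10 epididymal epithelium markers were called higher (median 5.965), beside 15.1% of all genes. So were 5 of 5 smooth muscle markers (median 3.76), 2 of 2 erythrocyte markers (median 2.15) and 2 of 2 basal cell markers. The part of muscle, blood, basal, germ cell and neutrophil RNA in the levels of the 4 genes was not tested.

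**Figure D4:**
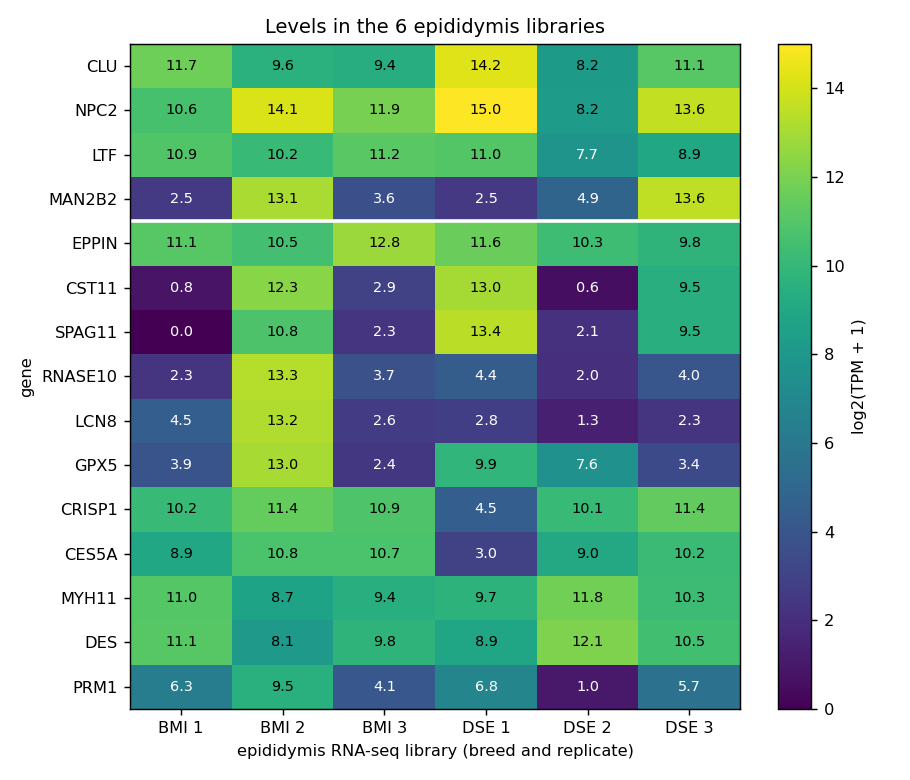
Levels as log2(TPM + 1) (color and printed number) of the 4 genes (above the white line) and 11 other genes (below it) in the 6 epididymis RNA-seq libraries (horizontal axis, by breed and replicate). MAN2B2 was high in BMI 2 and DSE 3, NPC2 in BMI 2, DSE 1 and DSE 3, and the muscle genes MYH11 and DES were highest in DSE 2 and BMI 1.

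Whether the breeds differed was tested within each gland on its 6 libraries. In the epididymis none of the 4 genes was called, and 0% of the 15402 genes tested were, with 292 genes at an unadjusted p below 0.05 in limma and 140 called in a fit of all 30 libraries. The BMI minus DSE difference was -0.97 for CLU (95% interval -4.46 to 2.53), -0.04 for NPC2 (-4.26 to 4.18), 1.53 for LTF (-0.37 to 3.43) and -0.55 for MAN2B2 (-9.15 to 8.05). These intervals include differences of several log2 units in either direction for CLU, NPC2 and MAN2B2. The breed difference in the epididymis was not called as different from that in the other glands for any of the 4 genes (adjusted p = 0.978 or more), as it was for 0.156% of genes.

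In the vesicular gland CLU was higher in BMI, at 192, 120.2 and 45.9 TPM, than in DSE, at 12.2, 34.7 and 13.7 TPM, with a log2 difference of 2.43 ± 0.48 (adjusted p = 0.0312). Of the genes tested there, 0.916% were called higher in BMI and 1.18% in either direction, and the median difference of all genes was 0.42. The call for CLU was lost without BMI replicate 1 (1.98, adjusted p = 0.0641), without BMI replicate 2 (2.32, adjusted p = 0.120) or without DSE replicate 1 (2.17, adjusted p = 0.0751), and with size factors (1.95, adjusted p = 0.120). LTF was also higher in all 3 BMI libraries of this gland, by 1.43 ± 0.34, without being called (adjusted p = 0.0687). It was called without DSE replicate 2 (1.80, adjusted p = 0.00395). In testis NPC2 was measured at 91.6, 90.3 and 83.2 TPM in BMI and at 171, 349 and 149 TPM in DSE, and all BMI libraries also lay below all DSE libraries for CLU, with differences of -1.22 (adjusted p = 0.208) and -0.95 (adjusted p = 0.371). Neither was called. In testis, prostate gland and bulbourethral gland none of the tested members was called, where 0.621%, 0.341% and 0.0218% of genes were called in either direction. LTF in testis and prostate gland and MAN2B2 in the accessory glands were too low to be tested between breeds.

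In Iso-seq the full-length reads of CLU, NPC2 and LTF were most frequent in DSE epididymis. CLU had 8173 of 231413 reads there, 35318 per 1000000 (exact Poisson 95% interval 34556 to 36092), and 2603 of 458697 reads in BMI epididymis, 5675 per 1000000 (5459 to 5897). NPC2 had 2284 and 375 reads, or 9870 and 818 per 1000000. LTF had 1236 and 56 reads, or 5341 and 122 per 1000000. BMI epididymis was above vesicular gland for CLU and NPC2, but LTF was more frequent in BMI vesicular gland, with 279 reads or 949.7 per 1000000 (842 to 1068), in BMI prostate gland, with 349 per 1000000, and in DSE vesicular gland, with 318 per 1000000. With 1 library for each breed and gland these differences have no replicate check, and intervals cover counting error only. LTF had 92 reads in BMI prostate gland and 0 in DSE prostate gland, the pair that also differed in PSP-I.

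MAN2B2 had 2 reads in DSE epididymis and 0 in the other 9 Iso-seq libraries. In BMI epididymis, 0 of 458697 reads allows up to 6.54 per 1000000 if 3 reads are taken as the limit of a count of 0, here and in the shares below, and up to 8.04 by the exact Poisson interval, while the BMI RNA-seq libraries held between 4.74 and 8730 TPM. Over 17891 genes, the DSE Iso-seq library correlated with the 3 DSE epididymis RNA-seq libraries at r of 0.679, 0.682 and 0.693, and the BMI Iso-seq library with the BMI ones at 0.601, 0.624 and 0.565. Across breeds the values were similar, at 0.651 to 0.675 for DSE Iso-seq with BMI libraries and 0.548 to 0.614 for BMI Iso-seq with DSE libraries. Genes are not independent replicates, and which boar was used for Iso-seq is not given in the sources used here.

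The isoform used was compared next. In RNA-seq the Ensembl transcript of CLU (ENSSSCT00000010601) took 84.8%, 84.2% and 88.0% of CLU TPM in the BMI epididymis libraries and 75.5%, 85.2% and 85.0% in DSE. This transcript has 10 exons, of which the exon at chr14:11349357-11349392 is joined to the shared exon. In Iso-seq none of the 12377 CLU reads came from an isoform with this junction. For DSE epididymis, 0 of 8173 reads allows a share of up to 0.0367% among the reads that the study kept after clustering and filtering. Isoforms joining the upstream exon at chr14:11352289-11352720 to the shared exon took 98.8% (8078 reads, Wilson 95% interval 98.6 to 99.0) in DSE and 98.9% (2574 reads, 98.4 to 99.2) in BMI epididymis, and 99.8% to 100% in the other 8 libraries. Most of these reads belonged to PB.5729.17, an isoform of 9 exons and 2459 bases with a predicted open reading frame of 446 residues, which held 11757 of all CLU reads but 6.05% to 12.7% of CLU TPM in the epididymis libraries. It also differs from the Ensembl transcript at the other end, with a last exon of 658 bases against 247. The TPM shares are of whole transcripts, and the part of each end in them was not tested.

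Among the other CLU isoforms, 13 of the 28 found by Iso-seq were classed as intron retention and 11 were predicted targets of nonsense-mediated decay, the pathway that degrades transcripts with an early stop codon. The most frequent of them, PB.5729.48, held 2.54% of CLU reads. PB.5729.35, with the GA donor shown above, took 14.7% of CLU TPM in DSE epididymis replicate 1 and at most 0.696% in the other epididymis libraries. It reached 10.7% in a prostate library. In Iso-seq it had 21 of 8173 reads (0.257%, Wilson interval 0.168 to 0.393) in DSE epididymis.

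NPC2 was read almost only as ENSSSCT00000002630 in Iso-seq, with 2277 of 2284 reads in DSE and all 375 in BMI epididymis. In RNA-seq this transcript took 99.1%, 99.3% and 90.1% of NPC2 TPM in the BMI epididymis libraries and 51.4%, 99.9% and 98.2% in DSE. ENSSSCT00000079038, the transcript starting with the 51-base exon shown above, took 48.5% in DSE replicate 1 (15612 TPM), 9.87% in BMI replicate 3 and 0% to 1.70% in the other 4. No Iso-seq read matched it, and 0 of 2284 reads allows a share of up to 0.131% among the reads kept in DSE epididymis. It also reached 14.9% in a testis library and 15.4% in a bulbourethral gland library.

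The share of the main isoform, the one with the highest mean TPM over all libraries, was compared between epididymis and the other glands by an exact two-sided permutation test. Only pairs in which every library reached 1 TPM were compared. MAN2B2 was therefore not tested, nor was LTF against testis and prostate gland. With 10 comparisons made, none passed at an adjusted p below 0.05. The mean share of CLU's main isoform was 83.8% ± 4.27 in epididymis and 85.5% to 87.1% in the other glands. That of NPC2 was 89.7% ± 19.1 in epididymis and 99.7% ± 0.162 in prostate gland (SD, n = 6 each, exact p = 0.0130, adjusted p = 0.0974). This mean rested on DSE epididymis replicate 1, without which the difference from prostate gland went from -10.1 to -2.41 percentage points and that from vesicular gland from -9.78 to -2.14, while those from testis and bulbourethral gland turned from -5.99 to 1.65 and from -4.62 to 3.02. Without DSE epididymis replicate 2 the difference of NPC2 was called against prostate and vesicular gland (adjusted p = 0.0433 each). For LTF it was 98.3% ± 1.16 in epididymis and 99.2% ± 0.199 in vesicular gland (exact p = 0.0195, adjusted p = 0.0974), a difference called without DSE vesicular gland replicate 1 (adjusted p = 0.0433).

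**Figure D5:**
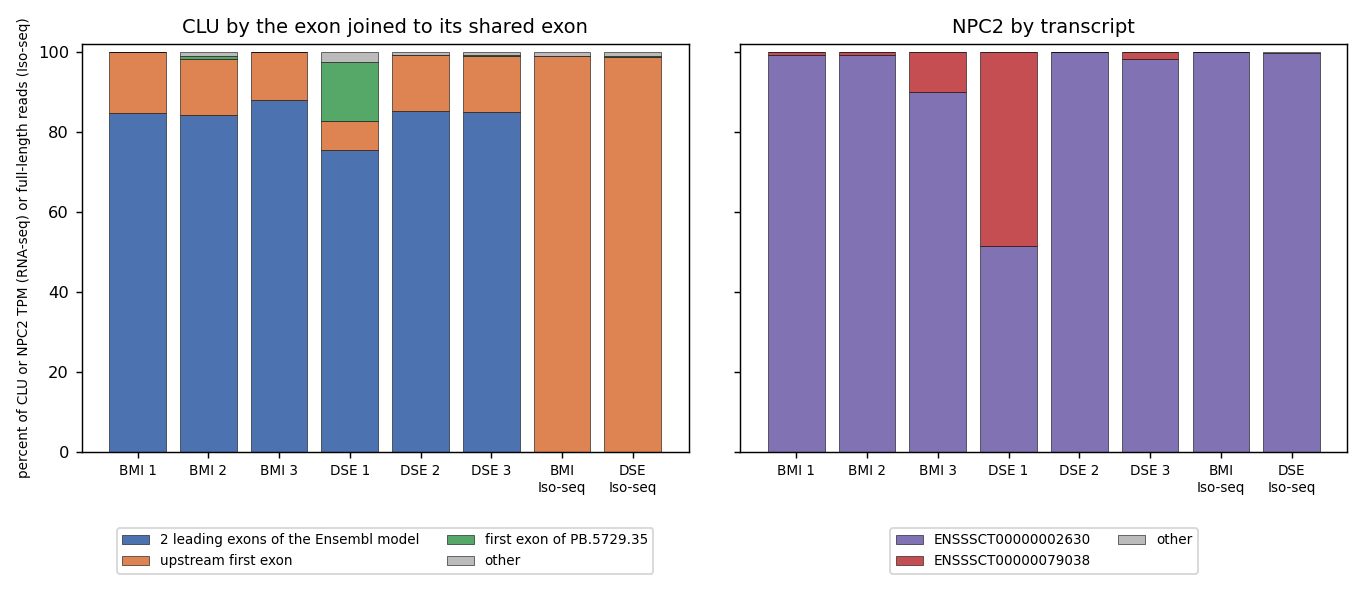
Left, percent of CLU TPM (6 epididymis RNA-seq libraries) or of CLU full-length reads (2 epididymis Iso-seq libraries) by the exon joined to the shared exon. Right, the same for NPC2 by transcript. The Ensembl transcript of CLU took 75.5% to 88.0% of TPM in RNA-seq, and isoforms with its beginning took 0% of reads in Iso-seq. ENSSSCT00000079038 took 48.5% of NPC2 TPM in DSE 1.

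LTF was mainly ENSSSCT00000030564, a transcript of 17 exons, at 96.6% to 99.0% of LTF TPM in the epididymis. In Iso-seq its counterpart PB.4268.108 held 94.6% of the 1785 LTF reads, and PB.4268.124, which matches another Ensembl transcript with 16 exons, held 4.59%. For MAN2B2, ENSSSCT00000023041 with 19 exons took 98.2% to 100% of TPM in the epididymis. The only Iso-seq isoform, PB.18423.1, has 20 exons, ends an exon 1 base earlier and holds an added exon at chr8:4176660-4176836, and was predicted to undergo nonsense-mediated decay. The donors of the shortened exon are shown, 10 bases of exon and 10 of intron with the intron's outermost bases in capitals, because the shift takes the intron off the usual GT.
ENSSSCT00000023041, donor, chr8:4164338-4164357: tctgggagagGTgaggtgta
PB.18423.1, donor, chr8:4164337-4164356: atctgggagaGGtgaggtgt
In RNA-seq PB.18423.1 took 1.78% of MAN2B2 TPM in DSE epididymis replicate 3 (215 TPM) and 0.305% in BMI replicate 2 (26.6 TPM). It also took 1.44% in DSE replicate 2 (0.400 TPM). In testis, where MAN2B2 was at 0.634 to 3.24 TPM, its share was 0% to 8.03%.

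Genes of related function were read from lists, without the 4 genes themselves, beside the 15.1% of all tested genes that were called higher and the 6.55% called lower in the same comparison. Of 30 lysosomal genes tested, 5 were called higher in epididymis than in the mean of the other glands, 1 was lower and 24 were not called. The share called higher was 16.67%, close to that of all genes, with a median log2 difference of 0.33 beside 0.25 over all genes. LAMP2, a lysosomal membrane protein, rose by 2.26 ± 0.23 (adjusted p = 2.06e-08). CTSB and PSAP, a cysteine protease and the saposin precursor, were abundant at 639 and 592 TPM with differences of 0.73 and 0.39 that were not called. Their adjusted p in limma was 0.0120 and 0.110, so that CTSB missed only the threshold on the difference. NPC1, the membrane protein that takes over cholesterol from NPC2, was lower by -1.22 ± 0.24 (adjusted p = 0.000133) and is named after its value was seen, as is HEXA, a lysosomal hydrolase that rose by 1.38 ± 0.15 (adjusted p = 4.80e-08).

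Of 9 other alpha-mannosidase genes tested, 1 was called higher, MAN1A1 of the Golgi (1.36 ± 0.34, adjusted p = 0.00147, named after its value was seen), or 11.11%, and the median difference was 0.09. MAN2B1, the lysosomal alpha-mannosidase, was measured at 50.4 to 94.7 TPM in the 6 epididymis libraries, without the split seen for MAN2B2, and differed by 0.73 ± 0.15. MAN2C1 and MAN1A2 differed by 0.32 and -0.04, and MAN2A2 by -0.98, none of them called. MAN2B1 and MAN2A2 missed only the threshold on the difference (adjusted p = 0.000284 and 0.000614 in limma). Of 11 genes of the transferrin family and iron handling, 2 (18.18%) were higher and 1 was lower. LCN2, which binds bacterial iron carriers, rose by 2.06 ± 0.58 and CP, the copper-carrying ferroxidase ceruloplasmin, by 3.03 ± 0.42. The transferrin receptor TFRC was lower by -1.16 ± 0.25 and is named after its value was seen. FTL, the ferritin light chain, had a mean of 2631 TPM and a difference of -0.03, and HFE one of -0.12.

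Of 6 extracellular chaperones and apolipoproteins tested, only SERPINA1, a secreted protease inhibitor, was called, higher by 5.37 ± 0.51 with 34.4 to 5465 TPM between epididymis libraries. APOD, APOA1 and APOE, lipid carriers like CLU, differed by 0.60, 0.88 and 0.58 and were not called (adjusted p = 0.211, 0.0253 and 0.0291 in limma). Of 9 receptors, 3 were called higher, where 15.1% of all genes were. SORT1, a sorting receptor for lysosomal proteins, rose by 2.21 ± 0.16 (adjusted p = 4.32e-11), and VLDLR, of the LDL receptor family, was called at a mean of 50.3 TPM (adjusted p = 0.000353). LRP2, an endocytic receptor for CLU and LTF named after its value was seen, rose by 2.88 ± 0.25. M6PR and IGF2R, the mannose 6-phosphate receptors, differed by 0.39 and 0.30 and were not called (adjusted p = 0.0213 and 0.354 in limma). Of 17 other secreted epididymal products, 16 were called higher, with a median of 4.96, and CST3 was not. EPPIN, a protease inhibitor of the sperm surface, rose by 9.76 ± 0.29, with 870.4 to 6966 TPM in every library. CST11 rose by 6.43 ± 1.17, SPAG11, a defensin-like peptide, by 6.05 ± 1.08 and RNASE10 by 4.57 ± 0.82, and these 3 spread widely between libraries as MAN2B2 did. Between the breeds, 0 genes of any of these lists were called in the epididymis.

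Of the 9975 named genes with a mean of at least 10 TPM in some gland, those whose log2 levels followed each of the 4 genes most closely over the 30 libraries are given as a description. The libraries share glands, so these correlations reflect differences between glands as well as between libraries. CLU was followed by HSF4 (r = 0.919), COPG2 (0.907) and GINS3 (0.906). NPC2 was followed by MCCD1 (0.95), ABHD12 (0.948) and TFAP2B (0.938), and LTF by ANG (0.954), AMOT (0.932) and TMEM51 (0.932). MAN2B2 was followed by DEFB129, a beta-defensin (0.969), SYT13 (0.965) and PATE1 (0.962), but by rank the likeness was lower, with a Spearman rho of 0.647, 0.465 and 0.685. DEFB129 ranged from 0.812 to 5193 TPM between the epididymis libraries. Among the 4 genes, NPC2 was most like LTF (r = 0.814) and MAN2B2 (0.703), and CLU was unlike LTF (0.017).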

How the data were processed

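For RNA-seq the labels name depletion of rRNA and the paper's methods name selection of mRNA by poly-T beads, so that the RNA selection is uncertain. The authors quantified transcripts with Salmon 1.9.0 on a merged annotation of Ensembl and Iso-seq isoforms (Sscrofa11.1). The deposited TPM values are per transcript and hold no read counts, so that no count model and no counting interval could be used. The deposited Iso-seq counts are full-length reads per isoform and library, without normalization, from 231413 to 458697 per library. TPM were summed by gene name, and 20773 to 25787 genes were above 0 per library. Genes reaching 1 TPM in 3 or more libraries entered limma 3.58.1 in R 4.3.3 (trend on log2(TPM + 1), 1 mean per breed and gland; breeds within a gland on 6 libraries). Fold changes on this scale understate changes of low genes. Isoform shares were tested with scipy 1.17.1, and sequences read with samtools 1.23.1. The inner exons of the genes' Ensembl transcripts had the same coordinates in RefSeq, except 1 of 8 in CLU. The test was checked on simulated data. Replicates are labelled only as separate samples, so that p-values measure the spread between samples, which may be technical.

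The members and lists were chosen with earlier results of these data known. Named are the 4 genes, the 3 genes most like each, and of each list the 4 with the highest mean epididymis TPM, of which some are not reported here. Alternatives were a pseudocount of 0.1, no filter, size factors, sums by gene identifier, Ensembl transcripts only, limma without trend, a replicate block, 1 fit of all libraries and leaving out each library. Leaving out 2 libraries together, log2 ranks, the exact test of levels and the contrast of breed differences between vesicular gland and testis were chosen after seeing the data. Small RNA data were not used here.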

Additional observations from a re-analysis of the deposited data

Results flagged for a closer look

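The BMI prostate gland replicate 2 stood apart from the other 5 prostate libraries for LTF, at 142.5 TPM against at most 0.545 TPM, and for NPC2, at 140.4 TPM against at most 60.7 TPM. In this library the vesicular gland genes SPMI, PSP-I and AWN were also high, as given above, and their part in these values was not tested. BMI bulbourethral gland replicate 3 stood apart for MAN2B2, at 0.772 TPM against at most 0.0813 TPM. The gap between the extreme library and its neighbor, divided by the range on the log2(TPM + 1) scale, was above Dixon's critical value at the 95% level in these 3 of 20 combinations of gene and gland with 6 libraries each. Chance alone puts about 1 in 20 above it.

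For CLU, the BMI and DSE libraries did not overlap and lay in opposite directions in testis, with a BMI minus DSE difference of -0.95 on the log2(TPM + 1) scale, and in vesicular gland, with 2.43. The difference between these breed differences was 3.39 ± 1.29 and was not called in the limma fit of all 30 libraries (adjusted p = 0.187), in which 2.66% of genes were. Without DSE epididymis replicate 1 it was called (3.39, adjusted p = 0.0487), and without DSE testis replicate 2 it was 2.96 (adjusted p = 0.432). DSE testis replicate 2 had the highest CLU of the testis, the lowest sum of germ cell and sperm markers, at 25963 TPM against 77794 to 118779 TPM, and the highest sum of Leydig cell markers, at 63514 TPM against 18595 to 32398 TPM. The sum of Sertoli cell markers was also highest there, at 333 TPM. It was 152 to 168 TPM in the BMI libraries and 207 and 254 TPM in DSE replicates 1 and 3. The sum of Leydig cell markers was at most 21822.5 TPM in BMI and at least 23926.9 TPM in DSE. For both sums the breeds thus did not overlap, as for CLU. The part of these cell types in the difference was not tested. Groups of 3 libraries can also separate by chance. The share of all genes whose breeds separate in this way was not computed, here or above.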

How the results depend on the processing

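All 4 genes stayed called higher in epididymis than in the mean of the other glands under every alternative run, without each library in turn (CLU 1.89 to 3.41, NPC2 4.42 to 6.11, LTF 6.35 to 7.17, MAN2B2 4.59 to 7.39) included, and no result reversed while called. LTF against vesicular gland was lost with size factors (given above) and with log2 ranks (1.16, adjusted p = 0.178), and CLU between breeds in vesicular gland with no filter (adjusted p = 0.258), Ensembl transcripts only (0.169), limma without trend (0.0550) and 1 fit of all libraries (0.278), beside the losses given above. Members called there were then 0 in place of 1, 2 with a replicate block (LTF adjusted p = 0.0396) and 0 to 2 without single libraries. Between 3 and 4 members were called against bulbourethral gland without single libraries.

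Counts of called genes moved more. Against the mean of the other glands, 4309 genes became 6543 with a pseudocount of 0.1, 2597 with Ensembl transcripts and 1428 with ranks. Ensembl transcripts and ranks gave 6083 and 6086 of 10148 against testis, 4385 and 1455 of 7261 against vesicular gland (3026 with size factors), 2665 and 1724 of 4245 against prostate gland, and 2669 and 2027 of 4245 against bulbourethral gland. For the breed difference in epididymis against the other glands, 31 became 20 with size factors, 6 with ranks, 87 without DSE epididymis replicate 1 and BMI prostate gland replicate 2, and 23 to 127 without single libraries.

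Between breeds, no filter, Ensembl transcripts, the replicate block and 1 fit of all libraries gave 31, 13, 258 and 949 in testis (102; 3 to 258 without single libraries), 1, 15, 678 and 95 in vesicular gland (150; 57 to 445) and 0, 15, 0 and 119 in prostate gland (46; 0 to 938; 18 with a pseudocount of 0.1 and 18 with size factors). In epididymis 1 fit gave 140 in place of 0. In bulbourethral gland 3 became 10 with a pseudocount of 0.1, 0 with no filter, 19 with size factors, 1 with Ensembl transcripts, 12 without trend, 59 in 1 fit and 0 to 5 without single libraries. The cause of these shifts was not tested. Libraries with the same number in both breeds of a gland deviated from their group means with a median correlation of -0.04, over 0.1 in 4 of 15 pairs. Those with the same number in glands of 1 breed had a median of 0.05, over 0.1 in 20 of 60 pairs. With other numbers in 1 breed the median was -0.02, over 0.1 in 18 of 120 pairs. Same-number glands of 1 breed were thus somewhat more alike. The sources do not say that the numbers pair samples, and they were not taken to do so. Whether libraries share a boar was not tested. The replicate block changed no other call of a member.

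Without single libraries the main isoform share differed between epididymis and vesicular gland by -11.8 to -2.14 percentage points for NPC2 and -1.11 to -0.616 for LTF, and from prostate gland by -12.1 to -2.41 for NPC2. The SD in the epididymis was 1.54 to 3.25 for NPC2 and 0.661 to 1.41 for LTF. TPM hold no depth. The paper reports the total reads of each library, but no limit was set on low RNA-seq values from them. Each Iso-seq value rests on 1 library.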
